A study of Mus musculus with 8 samples.

Results

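Integrin subunits were followed in tumor macrophages by the 3′ end counts of 10 genes, taken by name from a deposited table of 55450 genes: the alpha subunit genes Itga4, Itga5, Itga6, Itgal, Itgam, Itgav and Itgax and the beta subunit genes Itgb1, Itgb2 and Itgb7. All 10 had a row in the table. The libraries were 5 of BMDM (macrophages of bone marrow origin, which enter the tumor as monocytes) and 3 of microglia (the resident macrophages of the brain). Both came from WT mice that carried orthotopic GL261 gliomas, an isogenic mouse tumor line grown in the brain. BMDM were sorted as F4/80+CD11b+CD45+LY6Clo/-LY6G-CD49dhigh cells and microglia as F4/80+CD11b+CD45loLY6Clo/-LY6G-CD49dlo/- cells. The labels do not tie a library to a mouse. Each p-value therefore reflects only how far these libraries spread, which may be technical. In bulk samples, fewer cells of a type and less RNA per cell cannot be told apart.

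Integrins are adhesion receptors built from an alpha and a beta chain, which span the membrane together and link the matrix or another cell to talin and the actin cytoskeleton. The alpha chain largely sets the ligand. Itga4 (CD49d) joins Itgb1 or Itgb7 and binds Vcam1, fibronectin and Madcam1, and lets leukocytes settle on inflamed endothelium. Itgal (CD11a), Itgam (CD11b) and Itgax (CD11c) join Itgb2 (CD18), the beta chain found on leukocytes, and bind Icam1 or complement fragments. Itga5 and Itga6 join Itgb1 and bind fibronectin and laminins, and Itgav joins several beta chains and binds vitronectin and the latent form of TGF-beta. CD49d separated the gates and CD11b was required by both, so the values of Itga4 and Itgam were set by the sort and are descriptions here.

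Library totals ran from 5890406 to 9169531 counts in BMDM and from 10491469 to 16659154 in microglia. The gene model Gm42418 made up 14.8% to 19.8% of all counts for BMDM 1 to 3, 41.2% for BMDM 4 and 48.9% for BMDM 5, against 34.01% to 47.05% for microglia. BMDM 4 and BMDM 5 also had a count for fewer genes, 13346 and 14638, while BMDM 1 to 3 had 20011 to 21778 and microglia 17572 to 22809. Many of the results that rest on these libraries are also given without BMDM 5 or with only BMDM 1 to 3. Microglia markers summed to 799.5 to 1971 CPM (counts scaled to a common library size with TMM factors) in BMDM and 2866 to 8313 CPM in microglia, with 8 of 12 lower in BMDM and 0 higher. Monocyte-derived markers summed to 1041 to 3749 CPM in BMDM and 316.3 to 456.8 CPM in microglia, with 8 of 12 higher in BMDM and 0 lower. Over all genes tested, 1.11% were called higher in BMDM and 0.814% lower. Each population thus had the higher sum of its own markers, with Lyz2 at 220.6 to 2279 CPM of the BMDM monocyte-derived sums. Fn1 ran the other way, at a mean of 120.5 CPM in BMDM and 170.4 CPM in microglia, and was not called. Vcan and S100a4 overlapped between groups. Platelet markers summed to 65.5 to 585.5 CPM in BMDM and 8.34 to 21.4 CPM in microglia, with 1 of 3 tested markers called higher and 0 lower. That was Pf4, which made up most of the BMDM sum at 51.0 to 579.3 CPM, against 3.00 to 19.6 CPM in microglia (adjusted p = 0.0175), while Gp1ba and Gp1bb were at 0 in all libraries. Neutrophil markers summed to 61.3 to 117.8 CPM in BMDM and 37.8 to 41.6 CPM in microglia, with 1 of 7 tested markers called higher (S100a8, adjusted p = 0.0222) and 0 lower. Csf3r ran the other way without overlap, at 5.33 to 16.0 CPM in BMDM and 24.45 to 34.4 CPM in microglia, and was not called. Ly6g was at 0 to 0.138 CPM in BMDM and 0 CPM in microglia. Markers of tumor cells, astrocytes, oligodendrocytes and neurons summed to 132.8 to 207.2 CPM in BMDM and 185 to 341 CPM in microglia. Of these, 0 of 12 tested were called in either direction. Endothelial markers summed to 62.1 to 81.8 CPM in BMDM and 33.15 to 60.4 CPM in microglia, with 0 of 7 tested called. The part of any of these cells in the results, in genes higher in BMDM or in microglia, was not tested.

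The largest differences lay in the genes of the Itga4 and Itgb7 pair, both higher in BMDM. Of the 10 genes, 2 rose (Itga4 and Itgb7), 1 fell (Itga6) and 7 were not called (edgeR quasi-likelihood test, adjusted p under 0.05 after Benjamini-Hochberg correction over 16467 genes). Over all genes tested, 1.11% were called higher in BMDM and 0.814% lower. The 10 genes were picked with earlier results of these data known and include a sort marker among the calls, so the counts describe them and test nothing further. Their median log2 fold change (BMDM minus microglia) was 0.571, against 0.0784 over all genes tested.

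Itgb7, the beta chain that joins Itga4 in the gut-homing and leukocyte integrin, had 15.6, 11.2, 29.9, 42.3 and 24.3 CPM in BMDM 1 to 5, against 0.736, 0.905 and 3.34 CPM in microglia 1 to 3. Every BMDM library lay above every microglia library, as for 4.32% of all genes tested. The microglia values rested on 14, 9 and 30 counts, and those of BMDM on 91 to 266. The mean was 24.7 ± 12.3 CPM in BMDM (SD, n = 5) and 1.66 ± 1.46 CPM in microglia (SD, n = 3), a 15.04-fold difference (log2 fold change 3.91, SE 0.71, adjusted p = 0.00954). Itgb7 was the only 1 of the 10 genes that reached the level of the low-count filter, 1.2 CPM, in fewer than all libraries (5 of 5 in BMDM and 1 of 3 in microglia), so it entered the test through BMDM. The call held in 17 of 18 other settings and was lost with limma-voom (adjusted p = 0.0628). With only BMDM 1 to 3 the log2 fold change was 3.57.

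Itga4 (chromosome 2, 79255426 to 79333123, GRCm38) had 59.5, 48.6, 79.4, 95.8 and 97.2 CPM in BMDM 1 to 5, against 7.10, 17.5 and 11.6 CPM in microglia 1 to 3. The groups stood apart, as the CD49d gate set them to at the protein level. The mean was 76.1 ± 21.6 CPM in BMDM (SD, n = 5) and 12.1 ± 5.22 CPM in microglia (SD, n = 3), 6.32-fold (log2 fold change 2.66, SE 0.43, and 2.39 with only BMDM 1 to 3). Exons of Itga4 overlap those of Cerkl, on the other strand, over 1124 bases. Cerkl had 115 counts over the 8 libraries together, against 104 to 703 for Itga4 in each library. How reads in those shared bases were assigned is not given.

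Itgb7 was not itself sorted on, but its partner was. T and NK cells also carry Itgb7 and Itga4, and 13 of their markers were measured in the same libraries. They summed to 255.8, 86.6, 93.2, 142.6 and 32.2 CPM in BMDM 1 to 5, against 25.0, 19.5 and 5.23 CPM in microglia 1 to 3, with 0 of 11 tested markers called in either direction. Itgb7 was at 15.6, 11.2, 29.9, 42.3 and 24.3 CPM in BMDM 1 to 5. The sum and Itgb7 were each higher in all BMDM than in all microglia, and their orders within BMDM differed. BMDM 1 had the highest sum and BMDM 5 the lowest, while Itgb7 was highest in BMDM 4 and lowest in BMDM 2. Gzma alone made up 120.5 CPM of the BMDM 1 sum. Trac, Cd4 and Cd2 were highest in BMDM 4, at 18.6, 18.3 and 46.6 CPM, as Itgb7 was. The other markers were highest in other BMDM libraries. Cd3e was detected in every library, at 2.23 to 7.19 CPM in BMDM and 0.111 to 1.21 CPM in microglia. Cd247 also stood apart, at 0.369 to 8.52 CPM in BMDM and 0 to 0.201 CPM in microglia. The rest of the 13 markers overlapped between groups. Among them, Cd3d was at 0.138 to 27.2 CPM in BMDM and 0 to 0.905 CPM in microglia. Nkg7 was at 0.138 to 16.8 CPM and 0.302 to 2.00 CPM, and Cd8a at 0 to 6.13 CPM and 0.368 to 0.779 CPM. The part of these cells in the Itgb7 difference was not tested.

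**Figure D1:**
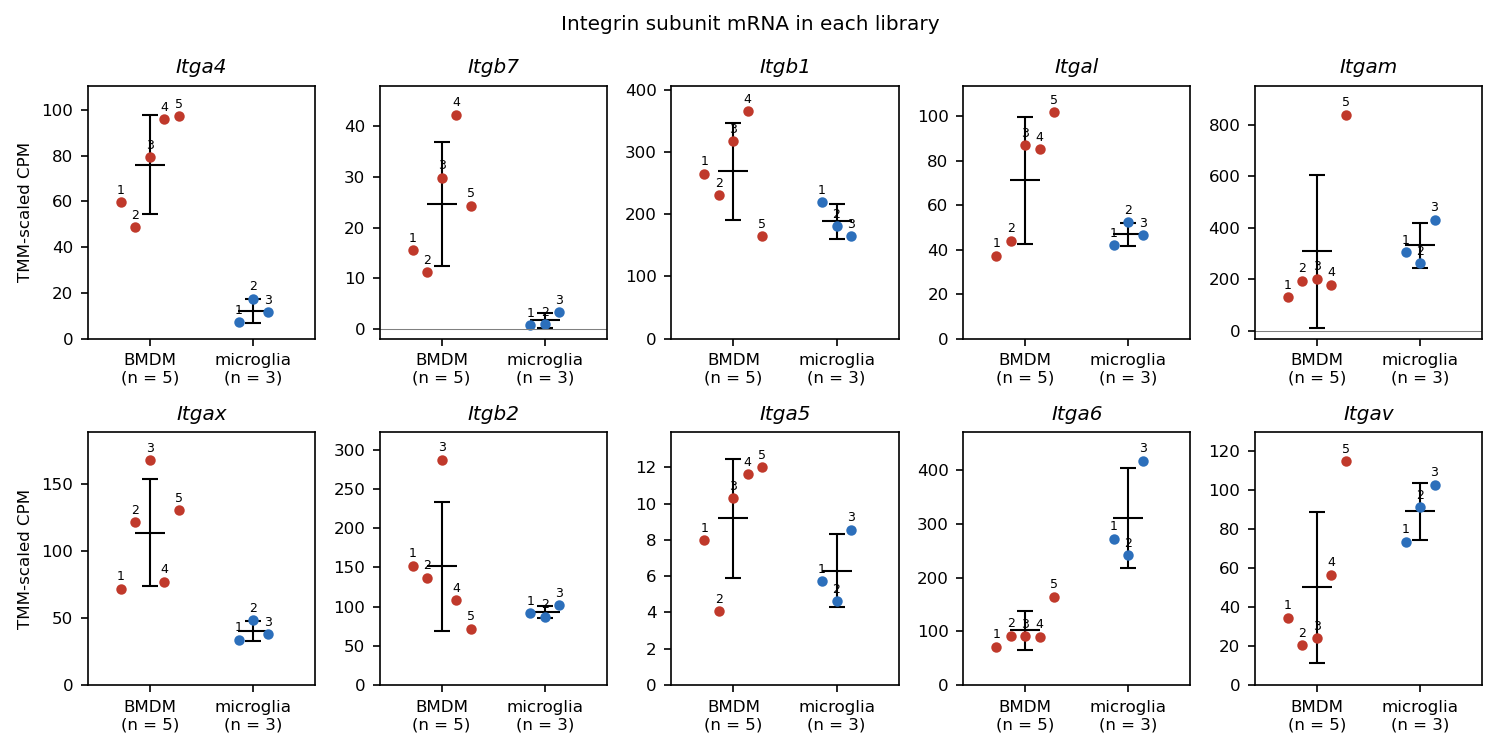
TMM-scaled CPM (vertical axis, linear, a scale of its own in each panel) of the 10 integrin genes in BMDM (red, n = 5) and microglia (blue, n = 3). Points are libraries marked by replicate number, and black bars give the mean and SD. Itga4, Itgb7 and Itgax lie higher in all BMDM libraries and Itga6 lower, while BMDM 5 stands far above the other BMDM for Itgam at 839.4 CPM. Itga4 and Itgam encode sort markers, so their values are descriptions.

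The start regions of Itga4 and Itgb7, the pair that rose, are shown beside those of Itgam and Itgax, which lie next to each other on chromosome 7. Each runs from 150 bases before to 20 bases after the RefSeq start site, 5′ to 3′ on the gene's own strand (GRCm38.p6, RefSeq). They are chr2:79255276-79255445 on the plus strand for Itga4, chr15:102231916-102232085 on the minus strand for Itgb7, chr7:128062490-128062659 on the plus strand for Itgam and chr7:128129400-128129569 on the plus strand for Itgax. Capitals mark matches on either strand to the Runx motif TGTGGT or to the Ets core GAGGAA, letters bound by the Runx factors and by Spi1 (PU.1) in myeloid genes. These motifs do not overlap each other in these windows.
Itga4: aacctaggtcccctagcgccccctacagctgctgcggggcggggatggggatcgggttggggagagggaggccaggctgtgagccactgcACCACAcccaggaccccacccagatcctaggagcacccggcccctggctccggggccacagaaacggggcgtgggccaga
Itgb7: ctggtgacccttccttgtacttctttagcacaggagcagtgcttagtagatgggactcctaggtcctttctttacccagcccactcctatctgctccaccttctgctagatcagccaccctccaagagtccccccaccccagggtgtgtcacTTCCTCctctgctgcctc
Itgam: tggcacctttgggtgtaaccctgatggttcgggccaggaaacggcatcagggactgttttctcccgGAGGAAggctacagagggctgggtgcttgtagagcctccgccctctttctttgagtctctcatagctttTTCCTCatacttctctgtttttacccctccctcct
Itgax: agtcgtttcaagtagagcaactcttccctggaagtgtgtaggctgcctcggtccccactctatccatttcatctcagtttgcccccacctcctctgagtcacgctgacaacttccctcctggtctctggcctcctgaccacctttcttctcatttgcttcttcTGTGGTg

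Of the 10 genes, 7 matched the RefSeq promoter table by symbol, and each has 300 bases there. The Runx letters were found in 2 of the 7 (Itga4 and Itgax) and in 16.8% of all 32851 windows in the table. The Ets core was found in 5 of the 7 (Itga5, Itgam, Itgav, Itgb1 and Itgb7) and in 28.3% of all windows. A match of this kind is a description of letters and not a site. Runx3, a Runx factor of myeloid and T cells, had 440.0 ± 171 CPM in BMDM (SD, n = 5) and 32.8 ± 10.6 CPM in microglia (SD, n = 3), and was called (log2 fold change 3.75, SE 0.50, adjusted p = 0.00155). Spi1, which drives the myeloid lineage, had 265.6 ± 135 CPM in BMDM (SD, n = 5) and 100.5 ± 18.2 CPM in microglia (SD, n = 3), with overlap between groups (log2 fold change 1.40, SE 0.49, adjusted p = 0.187). BMDM 5 was at 81.1 CPM, BMDM 1 to 4 at 215.3 to 424.4 CPM and microglia at 82.9 to 119.3 CPM. The part of Runx3 or Spi1 in the integrin values was not tested.

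Among the Itgb2 partners, Itgax was higher in every BMDM library but did not pass the test, and Itgal, Itgam and Itgb2 overlapped between groups. Itgax had 72.0, 121.7, 168.0, 77.4 and 130.5 CPM in BMDM 1 to 5, against 33.9, 48.4 and 37.9 CPM in microglia 1 to 3. The means were 113.9 ± 39.9 CPM in BMDM (SD, n = 5) and 40.1 ± 7.47 CPM in microglia (SD, n = 3), with a log2 fold change of 1.51 (SE 0.38, 95% interval 0.69 to 2.33, adjusted p = 0.0614). It stood just outside the threshold and was called in 10 of 18 other settings, with adjusted p from 0.000661 to 0.325 over all of them. Dendritic cells also carry Itgax, and 12 of their markers summed to 799.9 to 1782 CPM in BMDM and 873 to 1008 CPM in microglia, with 1 higher in BMDM (Ccr7, adjusted p = 0.0346) and 1 lower (Siglech, which microglia also carry). Most of the sum came from Bst2 and Tcf4, which other cells make too. Ccr7 was at 40.1, 5.54, 25.3, 29.0 and 0.276 CPM in BMDM 1 to 5, against 0.210, 0.603 and 0 CPM in microglia 1 to 3. Flt3 was at 2.55 to 7.59 CPM in BMDM and 0 to 3.02 CPM in microglia. Zbtb46 was at 0 to 9.87 CPM in BMDM and 0.101 to 3.12 CPM in microglia, and Xcr1 at 0 to 14.8 CPM in BMDM and 0 to 0.805 CPM in microglia. Their part in the Itgax values was not tested.

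Itgam (chromosome 7, 128062640 to 128118491) had 130.0, 194.7, 203.3, 179.4 and 839.4 CPM in BMDM 1 to 5, against 305.3, 263.0 and 431.5 CPM in microglia 1 to 3. BMDM 1 to 4 lay below all microglia and BMDM 5 above them. The log2 fold change was -0.11 with all libraries (SE 0.56, 95% interval -1.296 to 1.082, adjusted p = 0.97) and -0.92 without BMDM 5 (SE 0.29, adjusted p = 0.0869). Gm49368, a same-strand gene model that shares 3450 exon bases with Itgam, had 0 counts in all libraries. How reads in the shared bases were assigned is not given, so this 0 does not tell whether Itgam lost counts there.

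Itgal had 37.3, 44.1, 86.9, 85.3 and 102.0 CPM in BMDM 1 to 5, against 42.1, 52.4 and 46.5 CPM in microglia 1 to 3. BMDM 1 lay below all microglia and BMDM 2 among them, while BMDM 3 to 5 lay above. The log2 fold change was 0.60 (SE 0.39, 95% interval -0.23 to 1.42, adjusted p = 0.583), and 0.27 with only BMDM 1 to 3.

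Itgb2, the chain these alpha subunits share, had 152.3, 136.7, 287.2, 107.8 and 71.9 CPM in BMDM 1 to 5, against 91.4, 87.3 and 102.0 CPM in microglia 1 to 3. BMDM 5 was the only BMDM library below the microglia. The log2 fold change was 0.69 (SE 0.43, adjusted p = 0.556), and with only BMDM 1 to 3 it was 1.05 and called (SE 0.31, adjusted p = 0.0453). BMDM 5 was thus the lowest of the BMDM for Itgb2 and the highest for Itgam and Itgal.

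The matrix-binding subunits split: Itga6 fell in BMDM, Itgav fell when BMDM 5 was left out but not with all libraries, and Itga5 and Itgb1 were not called. Itga6, the laminin-binding chain, had 71.5, 92.2, 90.9, 90.3 and 164.6 CPM in BMDM 1 to 5, against 273.1, 242.6 and 418.2 CPM in microglia 1 to 3. All BMDM lay below all microglia, as for 8.66% of all genes tested. The means were 101.9 ± 36.1 CPM in BMDM (SD, n = 5) and 311.3 ± 93.8 CPM in microglia (SD, n = 3), 3.05-fold lower in BMDM (log2 fold change -1.61, SE 0.37, adjusted p = 0.0357). The call was lost when any 1 library other than BMDM 5 was left out (adjusted p 0.0565 to 0.166), and without BMDM 5 the value was -1.85 (adjusted p = 0.0039).

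Itgav had 34.5, 20.6, 24.0, 56.5 and 114.6 CPM in BMDM 1 to 5, against 73.5, 91.0 and 102.6 CPM in microglia 1 to 3. BMDM 1 to 4 lay below the microglia and BMDM 5 above them. The log2 fold change was -0.83 (SE 0.49, 95% interval -1.87 to 0.21, adjusted p = 0.517) with all libraries, -1.41 without BMDM 5 (SE 0.34, adjusted p = 0.0305) and -1.74 with only BMDM 1 to 3 (SE 0.28, adjusted p = 0.00333).

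Itgb1, the partner of Itga4, Itga5 and Itga6 and 1 of those of Itgav, had 265.6, 231.2, 318.0, 366.1 and 164.3 CPM in BMDM 1 to 5, against 219.5, 181.0 and 164.8 CPM in microglia 1 to 3. BMDM 1 to 4 lay above the microglia and BMDM 5 just under them. The log2 fold change was 0.51 (SE 0.37, 95% interval -0.28 to 1.31, adjusted p = 0.641), and 0.54 with only BMDM 1 to 3 (adjusted p = 0.207). Itga5, the fibronectin-binding chain, was sparse, with 33 to 109 counts per library. It had 7.99, 4.06, 10.3, 11.6 and 12.02 CPM in BMDM 1 to 5, against 5.73, 4.63 and 8.57 CPM in microglia 1 to 3, with overlap between groups (log2 fold change 0.54, SE 0.66, 95% interval -0.87 to 1.96, adjusted p = 0.828).

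**Figure D2:**
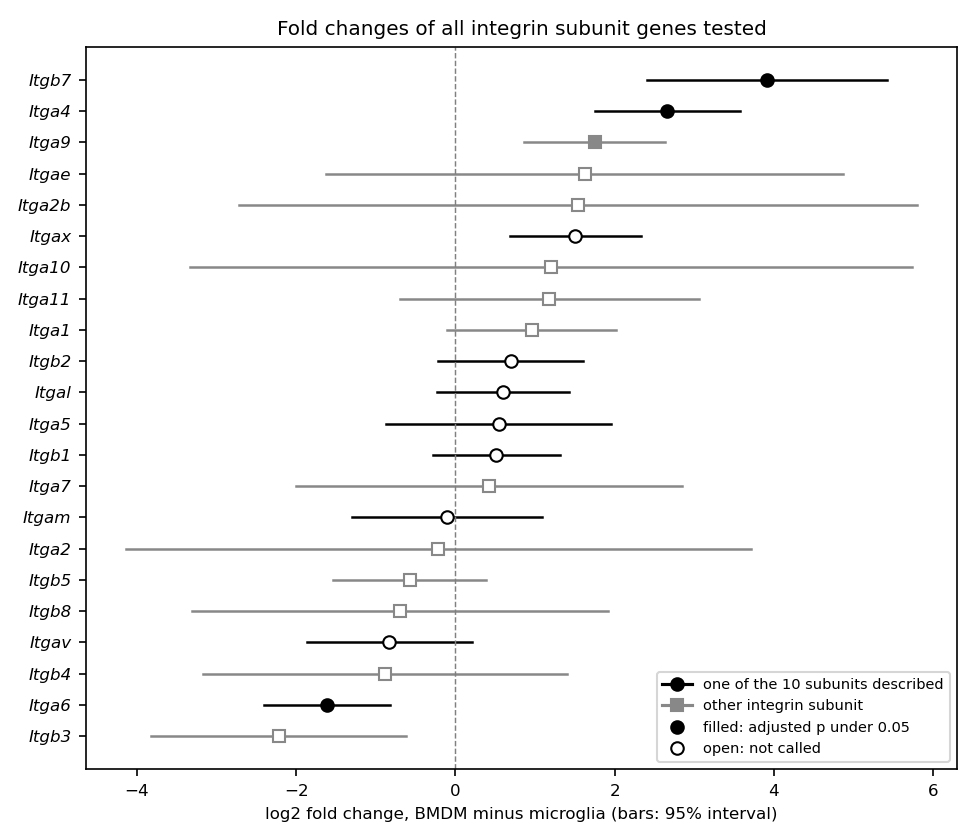
Log2 fold change (horizontal axis, BMDM minus microglia) of the 22 integrin subunit genes tested, with 95% intervals as bars. Circles are the 10 genes described and squares the other subunits, filled where the adjusted p was under 0.05. Itgb7 and Itga4 head the order at 3.91 and 2.66, and Itga6 (-1.61) is the only gene called lower. Itga4 and Itgam encode sort markers, so their values are descriptions.

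With only BMDM 1 to 3, 4 of the 10 genes were higher (Itga4, Itgb7, Itgax and Itgb2) and 2 lower (Itga6 and Itgav). In that fit 6.35% of all 16182 genes tested were higher and 8.11% lower. Those BMDM libraries also had a lower share of Gm42418 than all microglia, and its part in these calls cannot be told apart from that of the cell type.

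Because both chains are needed for a receptor, the count of each alpha gene was divided by that of its beta gene in each library. The result is free of the scaling between libraries. Such ratios compare libraries with each other and not the chains, since how well each 3′ end is captured is not known. The Itga4 to Itgb1 ratio was 0.224, 0.210, 0.250, 0.262 and 0.591 in BMDM 1 to 5, against 0.0323, 0.0967 and 0.0702 in microglia 1 to 3, without overlap. The Itga6 to Itgb1 ratio ran the other way, from 0.247 to 1.00 in BMDM and from 1.24 to 2.54 in microglia, again without overlap. On a log2 scale the group means differed by 2.23 for Itga4 and by -2.10 for Itga6, with values of -1.82 ± 0.61 in BMDM (SD, n = 5) and -4.05 ± 0.81 in microglia (SD, n = 3) for Itga4. CD49d separated the gates, so the Itga4 ratios were set by the sort and are descriptions, as are ratios and shares that include Itgam. How many other gene pairs stand apart was not computed.

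The ratios to Itgb2 overlapped between groups. Itgam to Itgb2 was 0.853, 1.42, 0.708, 1.67 and 11.7 in BMDM 1 to 5, against 3.34, 3.01 and 4.23 in microglia 1 to 3, so that BMDM 5 alone lay above the microglia. Itgax took 30.1%, 33.8%, 36.7%, 22.6% and 12.2% of the counts of the alpha genes Itgal, Itgam, Itgax and Itgad together in BMDM 1 to 5, against 8.89%, 13.3% and 7.35% in microglia 1 to 3. BMDM 1 to 4 lay above all microglia and BMDM 5 among them. The Itgav to Itgb1 ratio was also highest of the BMDM in BMDM 5, at 0.697, against 0.0755 to 0.154 in BMDM 1 to 4 and 0.335 to 0.623 in microglia.

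**Figure D3:**
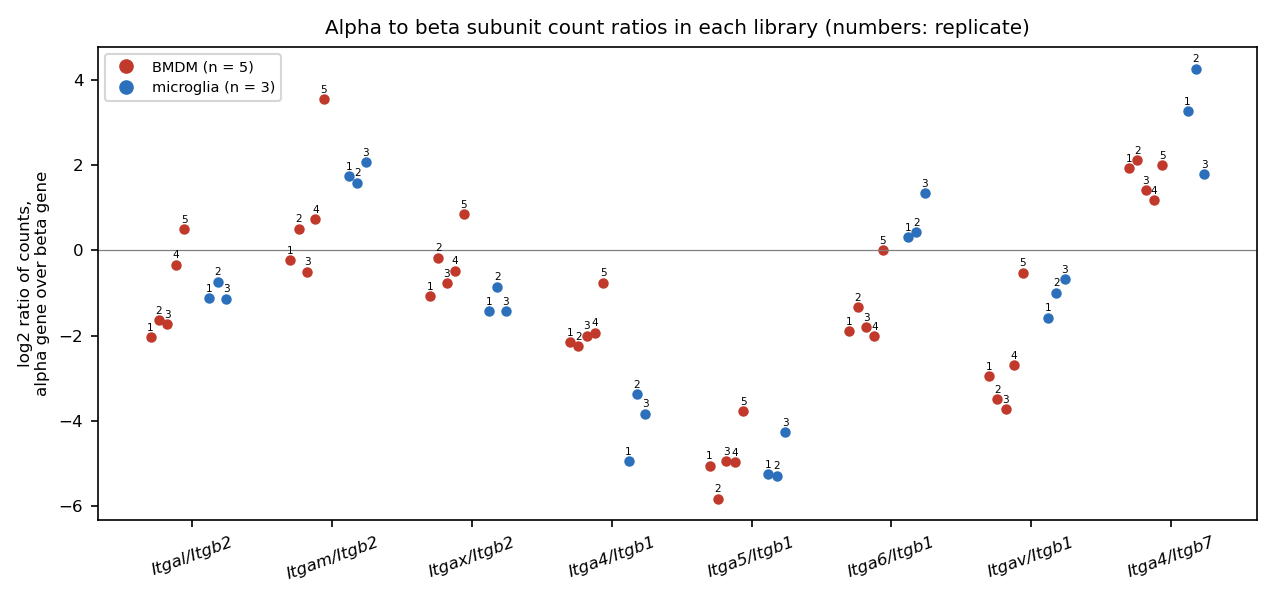
Log2 ratio of an alpha gene's counts to those of its beta gene (vertical axis) for 8 pairs, in each BMDM (red, n = 5) and microglia (blue, n = 3) library, marked by replicate number. The groups stand apart for Itga4/Itgb1 and Itga6/Itgb1, and BMDM 5 is the highest BMDM library for every pair with Itgb1 or Itgb2. Itga4 and Itgam encode sort markers, so their pairs are descriptions.

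All 16 other integrin subunit genes of the mouse list were in the table, and 12 passed the low-count filter. Of these, 1 was higher in BMDM, 0 were lower and 11 were not called, with a median log2 fold change of 0.692. The shares over all genes tested were 1.11% higher and 0.814% lower. Without adjustment, at p under 0.05, the edgeR fit had 1 higher and 1 lower, where 6.49% of all genes tested were higher and 7.27% lower. DESeq2, after adjustment, called 1 higher and 1 lower, against 5.17% higher and 2.75% lower of the 11643 genes to which it gave an adjusted p. Itga9, an alpha chain that binds tenascin and osteopontin and is close to Itga4 in sequence, had 26.4, 52.5, 37.9, 44.1 and 28.8 CPM in BMDM 1 to 5, against 15.7, 7.54 and 10.6 CPM in microglia 1 to 3. All BMDM lay above all microglia (log2 fold change 1.75, SE 0.42, adjusted p = 0.0456), and the call held in 9 of 18 other settings. It was lost when any 1 library other than BMDM 5 was left out (adjusted p 0.0565 to 0.276), with library totals (0.0746) and with limma-voom (0.0501).

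Itgb3, a partner of Itgav named here after its values were seen, had 2.00, 1.601, 4.23, 2.07 and 3.18 CPM in BMDM 1 to 5, against 9.78, 9.56 and 17.5 CPM in microglia 1 to 3. All BMDM lay below all microglia, but the gene was not called (log2 fold change -2.22, SE 0.75, adjusted p = 0.173), while with only BMDM 1 to 3 it was at -2.20 and called (adjusted p = 0.0274). Itgb5, also an Itgav partner named after its values were seen, had 15533 counts in all, against 539 for Itgb3. It overlapped, at 81.8 to 313.7 CPM in BMDM and 178.5 to 330.1 CPM in microglia (log2 fold change -0.58, SE 0.45, adjusted p = 0.682). With only BMDM 1 to 3 it was at -0.44 and not called (adjusted p = 0.514). Itga2b and Itgae, which mark platelets and intraepithelial lymphocytes, were at 0 to 2.53 CPM and 0.138 to 7.32 CPM in BMDM, against 0 to 0.999 CPM and 0.668 to 1.47 CPM in microglia. Itgad, the remaining partner of Itgb2, had 0 counts in BMDM and 3 over the microglia libraries.

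Inside the cell, integrins are switched on by talins and kindlins and signal through Src family kinases. Of 43 genes of this kind, 42 were tested, and 2 were higher in BMDM, 1 lower and 39 not called, with a median log2 fold change of 0.34. By unadjusted p in edgeR, 6 were higher and 3 lower, and DESeq2 called 4 higher and 2 lower. Over all genes tested, edgeR had 1.11% higher and 0.814% lower after adjustment, and 6.49% and 7.27% without it. DESeq2 had 5.17% higher and 2.75% lower. Fgr, a Src family kinase of myeloid cells, had 52.9, 44.2, 111.1, 101.7 and 25.0 CPM in BMDM 1 to 5, against 7.10, 6.24 and 7.23 CPM in microglia 1 to 3 (log2 fold change 3.29, SE 0.52, adjusted p = 0.00396), and its call held in all 18 other settings. Cib1, a calcium-binding protein that touches integrin tails, had 25.4 to 66.1 CPM in BMDM and 7.68 to 9.66 CPM in microglia (log2 fold change 2.50, SE 0.44, adjusted p = 0.00811). Leaving out microglia 1 (adjusted p = 0.0565) or microglia 3 (0.0714) ended that call. Tln2, the second talin, had 2.96 to 7.06 CPM in BMDM and 19.4 to 31.9 CPM in microglia (log2 fold change -2.24, SE 0.49, adjusted p = 0.0277), a call lost without BMDM 2, BMDM 3 or any 1 microglia library (0.0647 to 0.266), with library totals (0.0746) and with limma-voom (0.0541).

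At the surface, integrins sit beside tetraspanins and other partners. Of 12 such genes, 0 were higher in BMDM, 2 lower and 10 not called, with a median log2 fold change of -0.341. The shares over all genes tested were 1.11% higher and 0.814% lower. The unadjusted edgeR counts were 1 higher and 4 lower, and the DESeq2 calls 1 higher and 3 lower, to be read against the shares of all genes given for the other subunits. Cd9, a tetraspanin that binds Itgb1 integrins, had 43.4, 46.1, 58.7, 32.6 and 13.3 CPM in BMDM 1 to 5, against 305.6, 166.1 and 159.9 CPM in microglia 1 to 3 (log2 fold change -2.44, SE 0.43, adjusted p = 0.00853), and its call held in all 18 other settings. Cd81, a related tetraspanin, was at 23.2 to 143.1 CPM in BMDM and 251.3 to 467.5 CPM in microglia (log2 fold change -1.99, SE 0.48, adjusted p = 0.0463). That call held in 7 of 18 other settings. It was lost without any 1 library other than BMDM 5 (adjusted p 0.0616 to 0.188), and with all libraries under RLE factors (0.0587), library totals (0.129), Gm42418 and mitochondrial rRNA left out (0.0592) and a 10 CPM filter (0.0605).

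Among the ligands, 26 of 36 genes were tested, and 2 were higher in BMDM, 1 lower and 23 not called, with a median log2 fold change of -0.173. By unadjusted p in edgeR, 4 were higher and 1 lower, and DESeq2 called 2 higher and 1 lower. The shares over all genes were 1.11% higher and 0.814% lower in edgeR after adjustment, and 6.49% and 7.27% without it. In DESeq2 they were 5.17% and 2.75%. Thbs1, a matrix protein that binds Itgav receptors, had 142.3, 108.8, 202.4, 300.8 and 336.7 CPM in BMDM 1 to 5, against 20.7, 46.8 and 36.7 CPM in microglia 1 to 3 (log2 fold change 2.65, SE 0.49, adjusted p = 0.0111). The call was lost without microglia 1 (adjusted p = 0.0757) or microglia 3 (0.068). C3, whose fragment iC3b is bound by Itgam and Itgax with Itgb2, had 32.3 to 164.2 CPM in BMDM and 20.5 to 30.5 CPM in microglia (log2 fold change 1.97, SE 0.47, adjusted p = 0.0435), a call lost without BMDM 1, BMDM 3, BMDM 4 or any 1 microglia library (0.0743 to 0.207). With only BMDM 1 to 3, Thbs1 was at 2.14 (adjusted p = 0.00355) and C3 at 1.58 (adjusted p = 0.0233).

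Icam1, the ligand of Itgal and Itgam with Itgb2, had 54.1, 54.4, 84.0, 79.6 and 63.3 CPM in BMDM 1 to 5, against 151.5, 151.0 and 370.3 CPM in microglia 1 to 3. All BMDM lay below all microglia (log2 fold change -1.74, SE 0.38, adjusted p = 0.0261). The call was lost without BMDM 1, 2 or 3 (adjusted p 0.0575 to 0.0759) or microglia 3 (log2 fold change -1.25, adjusted p = 0.20).

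**Figure D4:**
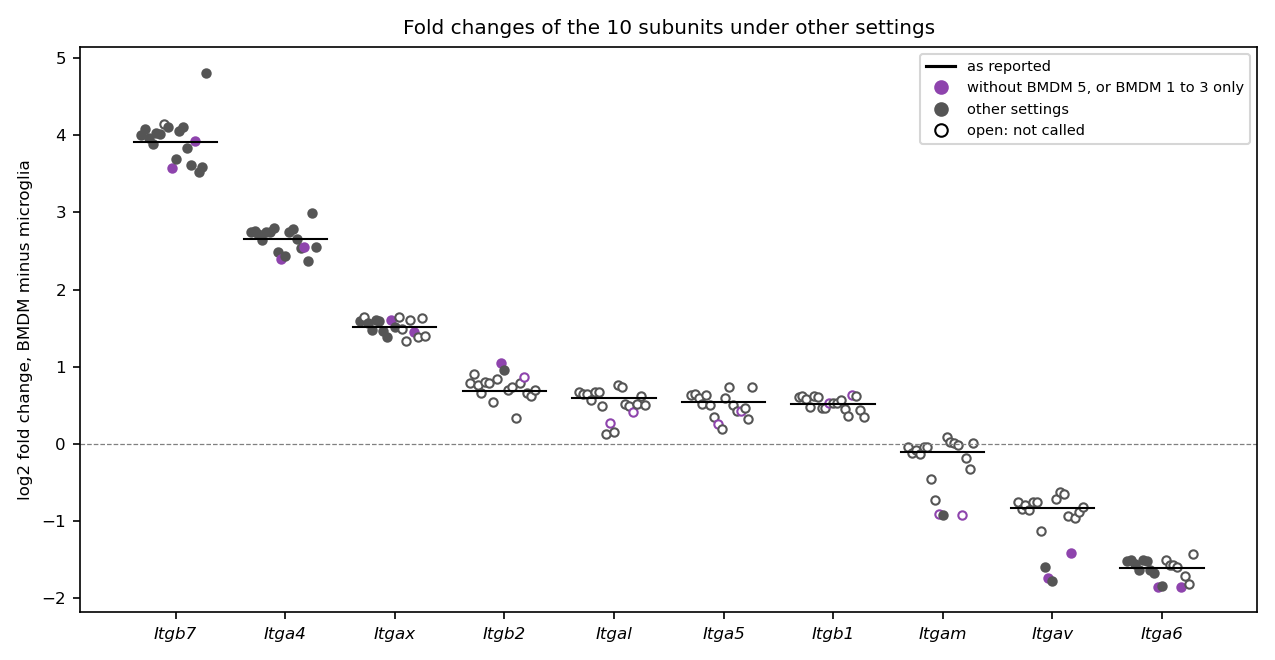
Log2 fold change (vertical axis, BMDM minus microglia) of the 10 genes under each other setting (points, filled where called) beside the value reported (black line). Purple points leave out BMDM 5 or keep only BMDM 1 to 3. Itgb7 and Itga4 stay above 2.3 throughout, whereas Itgam and Itgav lie at -0.92 and -1.41 without BMDM 5. Itga4 and Itgam encode sort markers, so their values are descriptions.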

How the data were processed

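Transcript ends of sorted cells were sequenced with the QuantSeq 3′ FWD kit. The authors deposited 1 table of raw counts per gene, whole numbers with no scaling. STAR, featureCounts, cutadapt, FastQC, DESeq2 and the build mm10 are listed, per the submitters' processing notes; settings, strand use and the treatment of reads with several matches are not given in the sources used here. All IDs and names (100%) were found in GENCODE M21 (GRCm38), the source of positions.

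Counts were fitted with edgeR 4.0.16 in R 4.3.3 over all genes: filterByExpr (minimum count 10, minimum total 15), TMM factors, robust quasi-likelihood test of BMDM minus microglia over 8 libraries, threshold 0.05. Standard errors come from the F statistic. Alternatives were limma 3.58.1 voom, DESeq2 1.42.0, other scaling and filters, a replicate block and each library left out. No libraries of a group were alike within sampling noise (lowest chi-square per degree of freedom 21.1).

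The members, gene lists and rules were chosen with earlier results of these data known. Beyond the 10 members, the text names called genes of each list (up to 6 per direction). Protein sequences were not used here.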

Additional observations from a re-analysis of the deposited data

Results flagged for a closer look

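Itgam in BMDM 5 lay far from the other BMDM libraries, at 839.4 CPM against 130.0 to 203.3 CPM in BMDM 1 to 4 and 263.0 to 431.5 CPM in microglia (gap over range 0.897). Itga6 in BMDM 5 did so too, at 164.6 CPM against 71.5 to 92.2 CPM in BMDM 1 to 4 and 242.6 to 418.2 CPM in microglia (0.777). Both exceeded Dixon's critical value of 0.71 for 5 libraries. Of 19 genes looked at, 2 did, and chance marks about 5% of groups.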

How the results depend on the processing

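Over 18 other settings, Itga4 kept its sign and call in all 18 and Itgb7 its sign in all 18. CD49d separated the gates, so the Itga4 call was set by the sort and its stability is a description only. The 10 members gave 179 values (Itga5 was not tested under the 10 CPM filter): 150 kept sign and call, 8 lost a call, 17 gained one and 4 turned sign. All 4 were of Itgam, which ran from -0.915 to 0.0935 with 1 library left out. The members called higher numbered 4 with only BMDM 1 to 3 and 4 with the replicate block, against 2. Those called lower numbered 2 with quality-weighted limma-voom, 2 with only BMDM 1 to 3 and 3 with the replicate block, against 1, and ran from 0 to 2 with 1 library left out. The replicate block treats same-numbered libraries as pairs, which the labels do not give. BMDM 4 and BMDM 5 have no microglia library of their number, so they add nothing to that contrast. It is thus not independent of the fit with only BMDM 1 to 3. Over all genes, higher and lower calls were 183 and 134 as reported, 403 and 318 with no filter, 602 and 320 with DESeq2, 1063 and 1685 with quality-weighted limma-voom, 1028 and 1312 with only BMDM 1 to 3, and 1449 and 1774 with the replicate block. Limma-voom gave 266 lower. With 1 library left out, higher calls ran from 58 (without microglia 3) to 536 (without BMDM 5) and lower calls from 46 to 602 (the same libraries). The cause was not tested. Same-numbered libraries correlated in their deviations by 0.137, 0.0903 and 0.238, and each correlated best with its own number, a hint from the data and not from the design; the labels do not pair them. Scaling by library totals put the median log2 fold change of all genes at 0.205, against 0.0784. Depth limits Itgb7 in microglia (9 to 30 counts).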
